A study of Homo sapiens with 9 samples.

Results

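The DNAJ family, also called HSP40, was taken as every gene whose symbol in the platform annotation is DNAJA, DNAJB or DNAJC followed by digits alone, with DNAJB9 left out. This gave 40 genes of 19775 measured, 4 in subfamily A, 11 in B and 25 in C. Each gene was read through the brightest of the probe sets that name it alone. Lower signals were set to a floor of 12.5, which is the median over all probe sets and arrays after scaling. Of the 40 members, 35 lay above the floor on all 9 arrays, 3 (DNAJB2, DNAJB8 and DNAJC22) on some of them, and 2 (DNAJB7 and DNAJC28) on none. DNAJC25 was read only by a probe set that names another gene as well, and it is not a member here.

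DNAJ proteins share the J domain, with which they stimulate the ATPase of HSP70 chaperones and so fix HSP70 on unfolded proteins that they often deliver themselves. Members of subfamily A have the J domain at the amino terminus, a stretch rich in glycine and phenylalanine and a zinc finger, those of subfamily B lack the zinc finger, and those of subfamily C have little beyond the J domain in common and mostly serve a particular place or task. In heated cells the transcription factor HSF1 binds heat shock elements, runs of the triplet GAA and its reverse complement TTC in alternation, in front of chaperone genes.

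The cells were U937, a human line from a histiocytic lymphoma that is widely used as a model of monocytes. They were held at 42 or 44 °C for 15 min, then returned to 37 °C for 0, 1, 3 or 6 h, and unheated cells kept at 37 °C were the control. There was 1 array for each of the 8 heated conditions and 1 for the control, so no test was possible, and every value describes these arrays. By its title, the study is about gene expression during apoptosis in heated cells. A gene is said to have risen or fallen when its signal differed from that of the control by 2-fold or more. The same control array stands in all 8 comparisons, so they are not independent. Its label gives no time, so at 1, 3 and 6 h heat and time in culture cannot be told apart. In RNA from whole cultures, fewer cells of a type and less RNA per cell cannot be told apart either.

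Deposited signals had trimmed means of 101 to 211 per array and were brought to a common trimmed mean of 100. Each array then had between 48.3 and 52.6% of its probe sets above the floor. As a sign of RNA quality, 3′ over 5′ signal was 1.18 to 1.36 for ACTB, and for GAPDH it was 0.939 to 1.13. Of 11 measured genes of a myeloid list 9 were above the floor on every array, SPI1, LYZ and CSF1R among them, and 2, MPO and CD14, on none. The summed signal of that list ran from 10081 to 16037. For 4 T cell genes the sum ran from 50.2 to 63.9, with CD3E and CD3G at the floor throughout. For 3 measured B cell genes it ran from 47.0 to 90.4, with CD79A above the floor on all arrays. For 4 epithelial genes it ran from 50.2 to 73.0, with EPCAM and KRT19 at the floor throughout.

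Promoter sequence was at hand in RefSeq (GRCh38.p14) for 37 of the 40 members, in 49 windows that run from 250 bases before a gene's start to 50 after it. Windows were searched on both strands for a pair of heat shock units, GAANNTTC or TTCNNGAA, and for a run of 3 units, in which each of these pairs is extended by another unit in alternation after 2 bases of any kind. A run therefore holds both pairs, overlapping. A pair was found in 8 of the 37 members (21.6%) and in 4417 of all 27305 genes with a window (16.2%). A run of 3 units was found in 2 of the 37, DNAJA1 and DNAJB6, and in 0.608% of all genes. The stretches that follow hold matches, in capitals. They belong to the 3 genes with the largest rises among members above the floor in the control, by the probe sets used. The others are DNAJB4, which rose late, and DNAJB6, which did not rise. Each begins 150 bases before the start and ends at the last base before it, except that of DNAJA1, which runs 20 bases further. DNAJB1 and DNAJA4 have 3 windows each and DNAJB4 has 2, and the window with the most pairs was printed.
DNAJB1: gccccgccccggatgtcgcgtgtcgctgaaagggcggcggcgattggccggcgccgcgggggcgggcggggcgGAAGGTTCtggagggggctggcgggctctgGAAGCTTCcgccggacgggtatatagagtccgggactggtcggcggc
DNAJA4: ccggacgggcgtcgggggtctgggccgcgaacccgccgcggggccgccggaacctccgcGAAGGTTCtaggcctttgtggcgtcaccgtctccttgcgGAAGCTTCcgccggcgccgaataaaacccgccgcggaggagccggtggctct
DNAJA1: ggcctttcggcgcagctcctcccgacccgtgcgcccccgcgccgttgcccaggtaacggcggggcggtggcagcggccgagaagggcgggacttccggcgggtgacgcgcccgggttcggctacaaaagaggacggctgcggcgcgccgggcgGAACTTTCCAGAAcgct
DNAJB4: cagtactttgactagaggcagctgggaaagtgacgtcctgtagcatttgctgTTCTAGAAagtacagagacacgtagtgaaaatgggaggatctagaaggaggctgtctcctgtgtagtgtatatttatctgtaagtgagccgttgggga
DNAJB6: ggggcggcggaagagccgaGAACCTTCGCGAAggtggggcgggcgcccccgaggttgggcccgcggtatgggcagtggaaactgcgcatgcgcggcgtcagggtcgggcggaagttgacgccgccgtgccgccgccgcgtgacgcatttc
They lie at chr19:14518398-14518547, minus strand, for DNAJB1, at chr15:78264412-78264561, plus strand, for DNAJA4, at chr9:33025123-33025292, plus strand, for DNAJA1, at chr1:78004789-78004938, plus strand, for DNAJB4, and at chr7:157336854-157337003, plus strand, for DNAJB6. DNAJB1 and DNAJA4 carried the same pair of 8-base matches, GAAGGTTC and GAAGCTTC, in the same order. The matches began 77 and 47 bases before the start of the printed DNAJB1 window and 91 and 52 bases before that of DNAJA4. The other windows of DNAJA4 and DNAJB4 held no match. The 13-base run of DNAJA1 began at base 4 after its start, and that of DNAJB6 began 131 bases before its start. The other members with a pair were DNAJB7, which was at the floor on every array, and DNAJC6 and DNAJC15, neither of which rose. Not printed are a further DNAJA1 pair, GAAGATTC, at -198 to -191 from the start, and a DNAJB1 pair, GAAGCTTC, at base 2 of the window of another start of that gene. A match describes letters in these windows and shows no binding.

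Changes of 2-fold against the control fell on 10 of the 40 members. Directly after 42 °C 3 of the 40 members (7.5%) had risen and 0 had fallen, against 0.93% and 2.41% of all genes. After 1 h of recovery 5 of 40 (12.5%) had risen and 0 had fallen (all genes 1.9% and 1.53%). The counts of 40 were 3 and 1 after 3 h (1.98% and 3.08%), and 4 and 1 after 6 h (2.59% and 2.38%). After 44 °C 0 of 40 had risen and 1 had fallen at 0 h (all genes 0.855% and 1.03%). At 1 h 2 (5%) had risen and 0 had fallen (0.925% and 0.455%), and at 3 h 2 (5%) and 0 (1.16% and 1.41%). At 6 h the counts were 4 and 1 (2.51% and 2.64%). Over all 8 heated arrays 6 of 40 members rose at least once and 4 of 40, all others, fell at least once, against 6.15% and 7.96% of all genes. Together these were 10 of 40 members (25%), against 13.8% of all genes. Genes at the floor on all arrays cannot pass the rule. Among genes above the floor on all 9 arrays 8 of 35 members (22.9%) passed 2-fold on 1 or more heated arrays, and 19.5% of all 9913 such genes did so, so the share that moved either way was near that of all genes. By direction, 4 of 35 rose and 4 of 35 fell, against 6.69% and 13.2% of such genes. By the probe sets used, the largest rises of members above the floor in the control belonged to DNAJA4, DNAJB1 and DNAJA1. DNAJB2 was at the floor there and rose by at least 3.28-fold, so its place among them is not known.

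**Figure D1:**
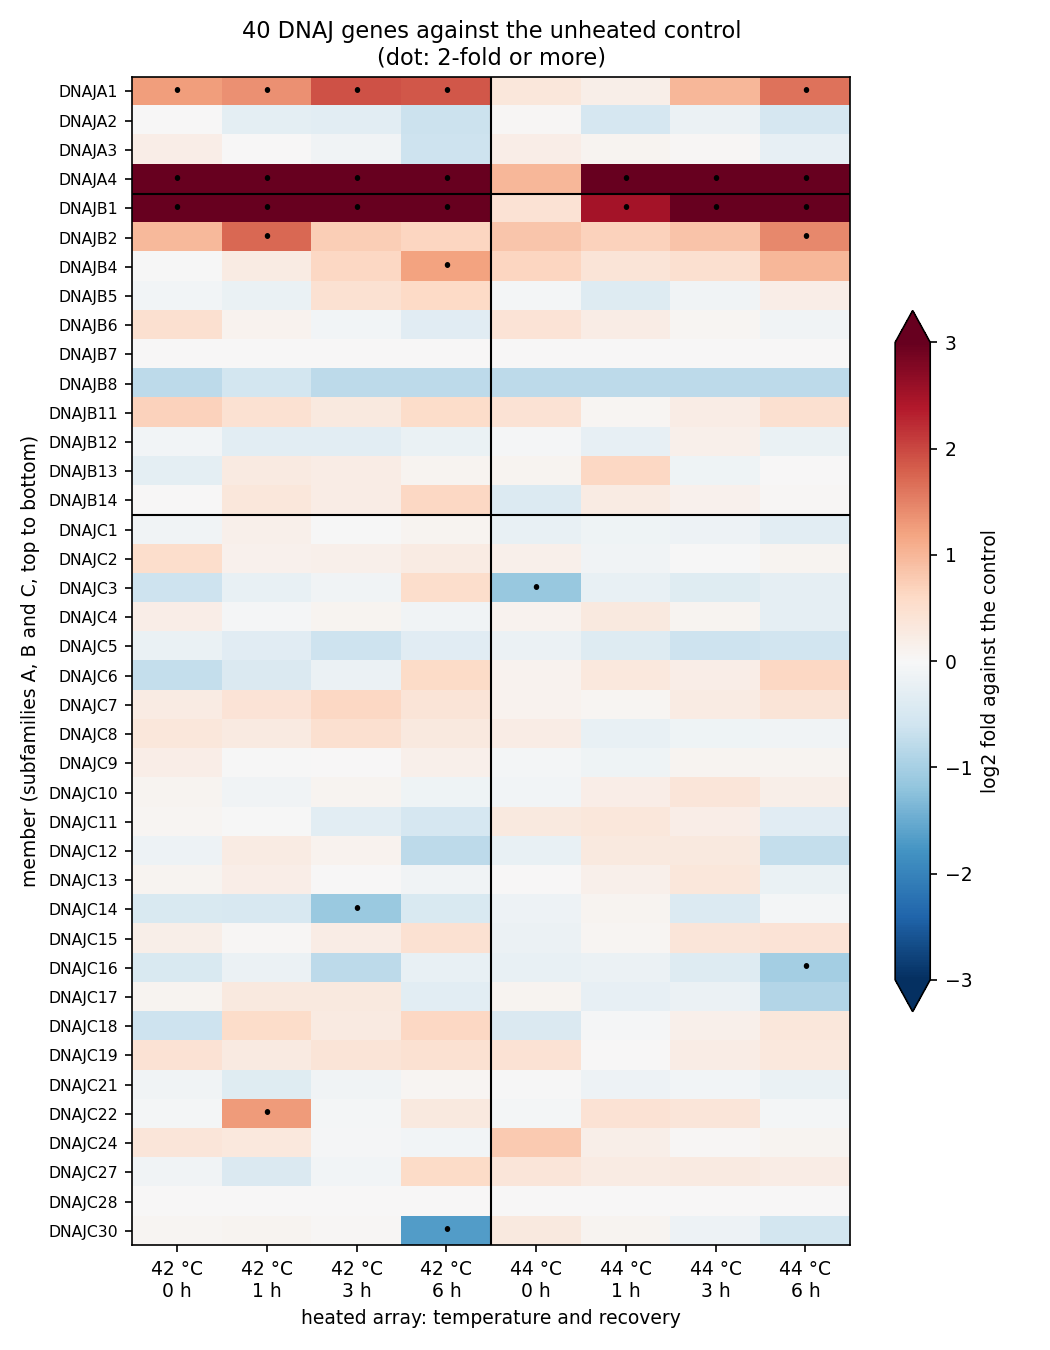
Log2 fold of each of the 40 members (rows, subfamilies A, B and C from top to bottom) against the unheated control on each of the 8 heated arrays (columns), with a dot where the difference was 2-fold or more and colours that saturate at a log2 fold of 3. DNAJA4, DNAJB1 and DNAJA1 form the dark red rows, and most of subfamily C is pale.

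DNAJB1 is the main heat-inducible DNAJ protein of the cytosol. Its scaled signal was 742 in the control. After 42 °C it was 6140 at 0 h, 8130 at 1 h, 12298 at 3 h and 6359 at 6 h. Every array from 42 °C was thus above the control, by 8.28-fold at 0 h and by 16.6-fold at the highest point, 3 h. Between 3 and 6 h the signal went down by 1.93-fold, short of the 2-fold rule. After 44 °C it was 1008 at 0 h, 4168 at 1 h, 6661 at 3 h and 7378 at 6 h. The 44 °C array at 0 h stayed near the control (log2 fold 0.44), and the step from 0 to 1 h was 4.14-fold. DNAJB1 stood 6th of 19775 genes by fold at 42 °C and 0 h and 16th at 6 h after either temperature. Its other probe set gave larger log2 folds wherever the gene had risen, from 2.71 to 4.67.

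DNAJA4 is a heat-inducible type A cochaperone of the cytosol. Its signal was 20.5 in the control, not far above the floor. Heating at 42 °C gave 259 at 0 h, 769 at 1 h, 894 at 3 h and 877 at 6 h, and the last 3 arrays differed from each other by 1.16-fold or less. The 44 °C series read 40.8 at 0 h, 165 at 1 h, 557 at 3 h and 1244 at 6 h, so that it was still climbing at the last time, by 2.23-fold from 3 to 6 h. Against the control it had risen 12.6-fold at 42 °C and 0 h and 60.6-fold at 44 °C and 6 h. By the probe set used, it had the largest fold of all 19775 genes at 6 h after both temperatures. That place depended on the probe set. The others reached log2 folds of at most 4.75 (42 °C) and 5.16 (44 °C) at 6 h. The highest of the measured HSP70 family were 5.03 and 5.58. In the control the probe set used, at 20.5, was dimmer than others at 29.7 and 22.3. At 44 °C and 0 h the log2 fold of DNAJA4, 0.99 by the probe set used, lay just under the rule.

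The size of the DNAJA4 rise depended on the probe set, while its direction did not where signals were above the floor. At 44 °C and 6 h the other 3 probe sets gave log2 folds of 1.29, 4.55 and 5.16 against 5.92 for the brightest. At 42 °C and 1 h they gave 0.80, 2.48 and 3.66 against 5.23. The probe set with the smallest folds never passed 1.43. Another was at the floor in the control and on the 44 °C arrays at 0 and 1 h, so that its folds are lower bounds.

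DNAJA1, a partner of HSP70 in the cytosol that is plentiful in unstressed cells, rose less. Its signal was 1873 in the control. The 42 °C series read 4437 at 0 h, 4837 at 1 h, 7043 at 3 h and 6838 at 6 h. All 4 arrays were above the control by 2-fold or more, with the highest fold, 3.76, at 3 h. Heating at 44 °C gave 2357 at 0 h, 2130 at 1 h, 3740 at 3 h and 5838 at 6 h. Of these 4 only the array at 6 h passed the rule, with 3.12-fold, and the array at 3 h missed it narrowly with a log2 fold of 0.997. The other probe set of DNAJA1 had log2 folds of 1.51 there and 1.84 at 6 h.

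**Figure D2:**
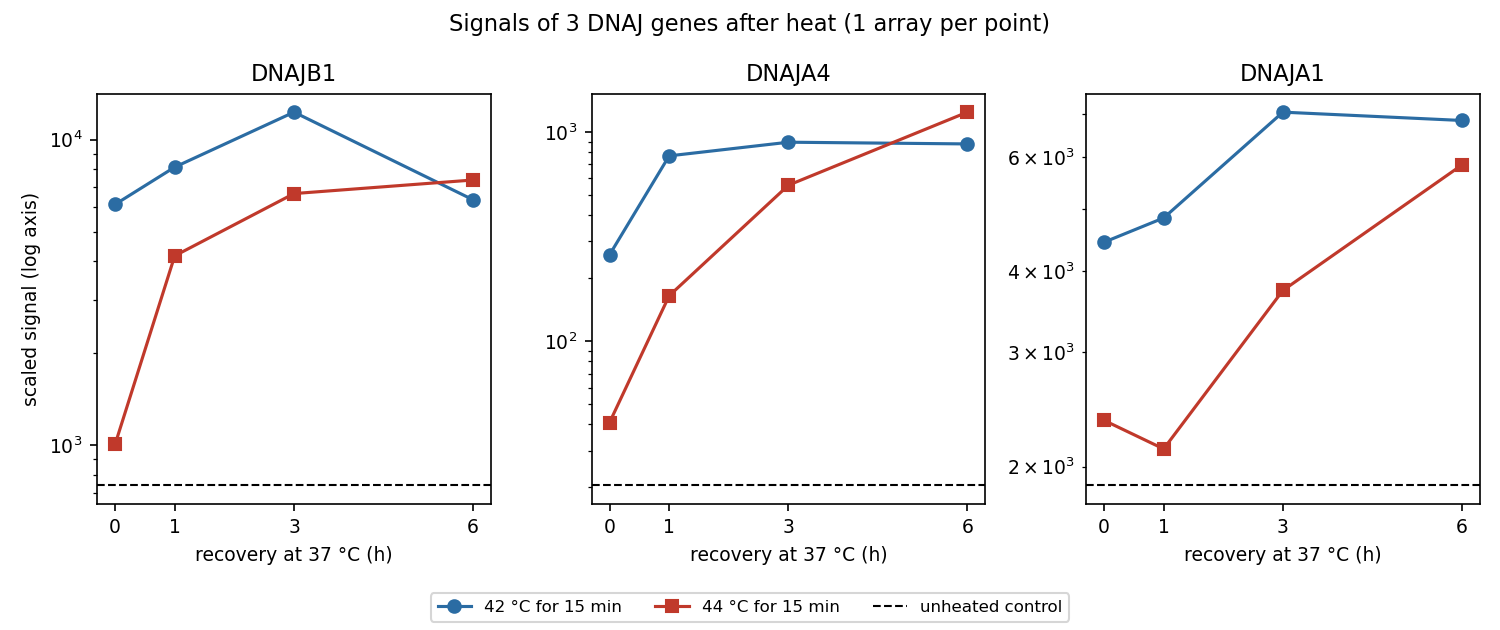
Scaled signals (log axis) of DNAJB1, DNAJA4 and DNAJA1 against hours of recovery at 37 °C after 42 °C (circles) or 44 °C (squares), 1 array per point, with the control as a dashed line. The 42 °C signals are above the control at 0 h, by 2.37-fold for DNAJA1 and by more for the others. The 44 °C signals start nearer to it and lie within 2-fold of those after 42 °C at 6 h.

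**Figure D3:**
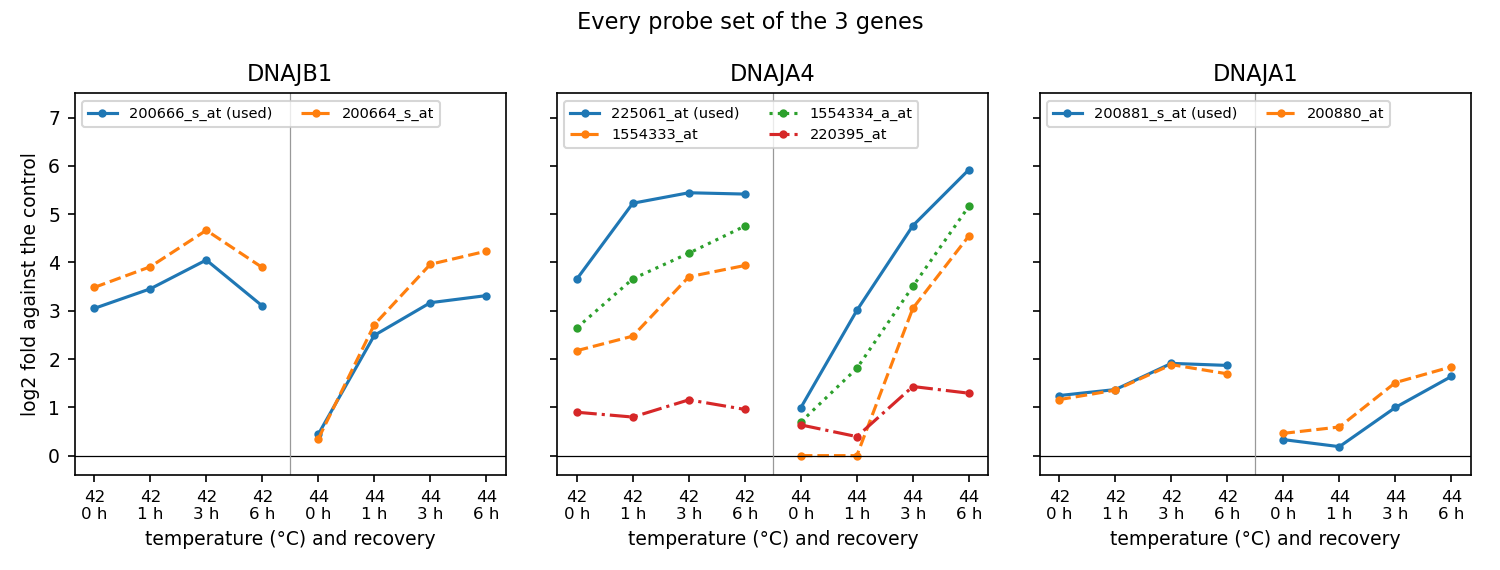
Log2 fold against the control for every probe set of DNAJB1, DNAJA4 and DNAJA1 on the 8 heated arrays, with the brightest marked as used. Both probe sets of DNAJB1 and both of DNAJA1 pass 2-fold at every time after 42 °C, and 1 of the 4 probe sets of DNAJA4 stays at a log2 fold of 1.43 or less.

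Set side by side at the same recovery time, the 3 genes were lower after 44 °C than after 42 °C early on. At 0 h 2 of 40 members (5%) were lower at 44 °C by 2-fold or more and 0 were higher (all genes 0.753% and 1.59%). They were DNAJA4, lower by 6.34-fold, and DNAJB1, lower by 6.09-fold, and they ranked 8th and 9th among all genes from the lowest. DNAJA1 had a log2 difference of -0.91. At 1 h 3 of 40 (7.5%) were lower and 0 higher (all genes 1.27% and 1.01%). The 3 were DNAJA4, lower by 4.66-fold, DNAJA1 by 2.27-fold and DNAJB2 by 2.04-fold. DNAJB1 had a log2 difference of -0.96 there. For DNAJA1 the median over its 2 probe sets gave -0.97.

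By 3 h the difference was smaller than at 0 h for DNAJA4 and DNAJB1. Of the 40 members 0 were lower and 0 higher by 2-fold (all genes 0.976% and 1.02%). DNAJA1, DNAJB1 and DNAJA4 had log2 differences of -0.91, -0.88 and -0.68, and DNAJA1 had also had -0.91 at 0 h. At 6 h DNAJA4 and DNAJB1 were on the other side, at 0.50 and 0.21, and DNAJA1 was at -0.23, all within 2-fold. The sign for DNAJA1 depended on the probe set, since its other one had 0.15. DNAJC30 alone passed the rule at 6 h, higher by 2.15-fold at 44 °C (0.85% of all genes were higher and 1.37% lower). That call had the opposite sign, -0.38, when its 3 probe sets were combined by their median. Across unequal times, DNAJB1 at 3 h after 44 °C (6661) was near its level at 0 h after 42 °C (6140), and DNAJA4 at 1 h after 44 °C (165) was below its level at 0 h after 42 °C (259).

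In subfamily B 2 further genes rose, both at low signals. DNAJB2, a cochaperone that also binds ubiquitin and is best known from neurons, was at the floor of 12.5 in the control. Its signal after 42 °C was 24.6, 41.1, 20.9 and 19.6 at 0, 1, 3 and 6 h, and after 44 °C 22.3, 20.2, 22.7 and 33.9. All 8 heated arrays were above the control, and the calls at 42 °C and 1 h (at least 3.28-fold) and at 44 °C and 6 h (at least 2.70-fold) are lower bounds. With a floor of 37.0 these log2 folds became 0.16 and 0.00. DNAJB4, a cytosolic relative of DNAJB1, had a signal of 54.2 in the control. The 42 °C arrays had 53.7, 64.2, 83.6 and 126, and after 44 °C 84.2, 70.8, 75.5 and 108. The highest value at each temperature was the one at 6 h. It passed the rule at 42 °C (2.33-fold) and had a log2 fold of 0.99 at 44 °C. The other probe set of DNAJB4 gave 1.85 and 1.17 there, and the call at 42 °C was lost with arrays scaled to a common median (0.96).

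The other 8 members of subfamily B never passed 2-fold by the probe set used, with log2 folds from -0.79 to 0.69 over the 8 heated arrays. DNAJB11, which serves the HSP70 protein of the endoplasmic reticulum, had a signal of 565 in the control, 911 at its highest (42 °C, 0 h) and no heated array below the control. DNAJB6, which keeps aggregation-prone proteins soluble, had 306 in the control and ran from 243 at 42 °C and 6 h to 423 at 42 °C and 0 h. At both temperatures its signal was lower at each later time, and the arrays at 0 h had log2 folds of 0.47 and 0.42. DNAJB12 and DNAJB14, of the membrane of the endoplasmic reticulum, ran from 99.8 to 138 and from 118 to 241. A dimmer probe set of DNAJB12 fell on 2 arrays, with a lowest log2 fold of -1.37 at 44 °C and 0 h. DNAJB5 and DNAJB13 ran from 32.9 to 65.4 and from 23.4 to 43.5. DNAJB8 was above the floor on 2 arrays, with 21.7 in the control and 14.9 at 42 °C and 1 h.

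Subfamily A held 2 members that did not move by 2-fold. DNAJA2, a cytosolic partner of HSP70 like DNAJA1, had a signal of 734 in the control. On the 42 °C arrays DNAJA2 had 742, 596, 589 and 468, and after 44 °C 757, 517, 650 and 518. Its lowest log2 fold was -0.65, at 42 °C and 6 h. DNAJA3, the mitochondrial type A protein, had 842 in the control, 972 at its highest (42 °C, 0 h) and 546 at its lowest (42 °C, 6 h). Both genes thus had their lowest array at 6 h after 42 °C, where DNAJA1 and DNAJA4 stood 3.65-fold and 42.7-fold above the control.

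In subfamily C 4 members fell, each on 1 array, and 1 rose on 1 array. DNAJC3, an endoplasmic reticulum protein also known as an inhibitor of kinases that block translation, had a signal of 725 in the control. After 42 °C it had 470, 624, 679 and 1047, and after 44 °C 332, 620, 566 and 597. By the probe set used, the 44 °C array at 0 h was the lowest of the 9, at 2.19-fold under the control, and the 42 °C array at 0 h was the next lowest. This order differed between probe sets. Among the others was a probe set with its lowest signal, 473, at 44 °C and 3 h. The other 3 probe sets had log2 folds from -1.54 to -0.30 at 44 °C and 0 h, and their median with the brightest was -0.92.

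DNAJC30, a mitochondrial protein, had a signal of 77.9 in the control. On the 42 °C arrays it had 81.2, 82.6, 80.4 and 24.6, and after 44 °C 95.3, 82.4, 70.2 and 52.8. The array at 42 °C and 6 h stood alone, 3.17-fold under the control. The 1 other probe set above the floor had a log2 fold of 0.019 there. DNAJC14, which helps membrane receptors leave the endoplasmic reticulum, had 119 in the control. Heated at 42 °C, the cells gave 86.5, 85.4, 54.9 and 86.6, and after 44 °C 107, 125, 89.0 and 114. It fell by 2.17-fold at 42 °C and 3 h, and its other probe set had -0.78. The call was lost with quantile normalisation, where the log2 fold was -0.99. DNAJC16 had 117 in the control, its highest signal. Signals after 42 °C were 85.6, 104, 68.1 and 99.7, and after 44 °C 101, 104, 90.0 and 58.0. Its fall of 2.02-fold at 44 °C and 6 h lay at the edge of the rule, with -0.91 under quantile normalisation. The other 2 probe sets of DNAJC16 had log2 folds of -0.48 and -0.29 there, the latter with its signal at the floor. DNAJC22 was at 13.1 in the control and 31.7 at 42 °C and 1 h (2.42-fold), with the other arrays between the floor and 17.6, and its other 2 probe sets were at the floor throughout.

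The other 20 members of subfamily C stayed within 2-fold of the control on all arrays by the probe set used, with log2 folds from -0.89 to 0.78. Dimmer probe sets did not always follow. Over the family 30 members never passed the rule against the control, and of the 24 with more than 1 probe set 6 had another that did, namely DNAJB12, DNAJC7, DNAJC9, DNAJC12, DNAJC13 and DNAJC21.

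DNAJC7, which holds both HSP70 and HSP90, had probe sets that differed in whether it rose. The brightest, which was used, had a signal of 490 in the control. It had 582, 648, 752 and 645 after 42 °C and 527, 514, 585 and 643 after 44 °C. All 8 heated arrays were above the control, with a highest log2 fold of 0.62. The other 2 probe sets were above the floor on all 9 arrays, at 48.8 and 34.1 in the control. At 42 °C one of them had log2 folds of 1.75, 2.31, 1.44 and 0.59 over the 4 times, and the other had 2.28, 2.76, 1.76 and 1.33. At 44 °C the first of these had 0.71, 1.27, 1.12 and 0.50, and the other had 0.86 at 0 h, 1.46 at 1 h and 1.22 at 6 h and also passed the rule at 3 h. So 2 of its 3 probe sets rose, on 5 and on 7 of the 8 heated arrays, with their highest values at 42 °C and 1 h, and DNAJC7 cannot be called steady. Why the probe sets differ was not tested.

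Among the brightest members of the subfamily the signals used stayed within 2-fold across the arrays, as did those of dimmer members such as DNAJC19 and DNAJC21. DNAJC9, a chaperone of histones, ran from 980 to 1231 over the 9 arrays. DNAJC8, of the spliceosome, ran from 960 to 1561, and DNAJC1, of the membrane of the endoplasmic reticulum, from 1028 to 1430. The highest signal of DNAJC9 was 1.26 times its lowest, the smallest such ratio among the 38 members not at the floor throughout. DNAJC2, which binds the ribosome near the exit of the nascent chain, was highest at 42 °C and 0 h (1377 against 956 in the control). DNAJC5, the cysteine string protein of secretory vesicles, had 375 in the control and ran from 242 to 334 on the heated arrays, all of them lower. DNAJC17, a nuclear protein linked to splicing, had the lowest log2 fold of these members, -0.89 at 44 °C and 6 h, and DNAJC24, which takes part in making diphthamide, the highest, 0.78 at 44 °C and 0 h.

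By place in the cell, the counts past 2-fold on any heated array were small and can be set beside 6.15% of all genes that rose and 7.96% that fell. Of 6 measured members on the list for the endoplasmic reticulum 0 rose on any heated array, and 1 fell, DNAJC3 at 44 °C and 0 h. Their median log2 fold ran from -0.16 to 0.31 over the 8 arrays. That list is not complete. It lacks DNAJC14, tied above to the endoplasmic reticulum, which fell at 42 °C and 3 h (log2 fold -1.12). It also lacks DNAJB9, a protein of that place left out by the selection, which rose by 4.66-fold at the most. Of 6 mitochondrial members 0 rose and 1 fell, DNAJC30 at 42 °C and 6 h, with medians from -0.25 to 0.25. DNAJC15 and DNAJC19, which belong to the motor that pulls proteins into mitochondria, had highest log2 folds of 0.46 each. Of 5 members tied to splicing, ribosomes or chromatin 0 rose and 0 fell, with medians from -0.16 to 0.21. Of 3 members of vesicle traffic 0 rose and 0 fell, with medians from -0.35 to 0.20. The 3 genes with the large rises are all cytosolic or nuclear proteins. Members of the cytosol were not counted as a list, and DNAJA2, also cytosolic, had log2 folds from -0.65 to 0.05.

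The subfamilies had different numbers of members that rose. In subfamily A 2 of 4 rose on 1 or more heated arrays and 0 fell, in B 3 of 11 rose and 0 fell, and in C 1 of 25 rose and 4 fell, with DNAJC7 not counted as risen. With members above the floor on all arrays alone these counts were 2 of 4, 2 of 8 and 0 of 23 for rises and 0, 0 and 4 for falls. Among all 9913 genes above the floor on all arrays 6.69% rose and 13.2% fell. The median log2 fold of subfamily A ran from 0.13 to 0.91 over the 8 heated arrays, that of B from 0.00 to 0.54 and that of C from -0.07 to 0.07. The median of all genes above the floor ran from -0.06 to 0.02. With 4 members the median of subfamily A rests on DNAJA1 and DNAJA4 against DNAJA2 and DNAJA3, and members are not replicates, so these are descriptions.

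**Figure D4:**
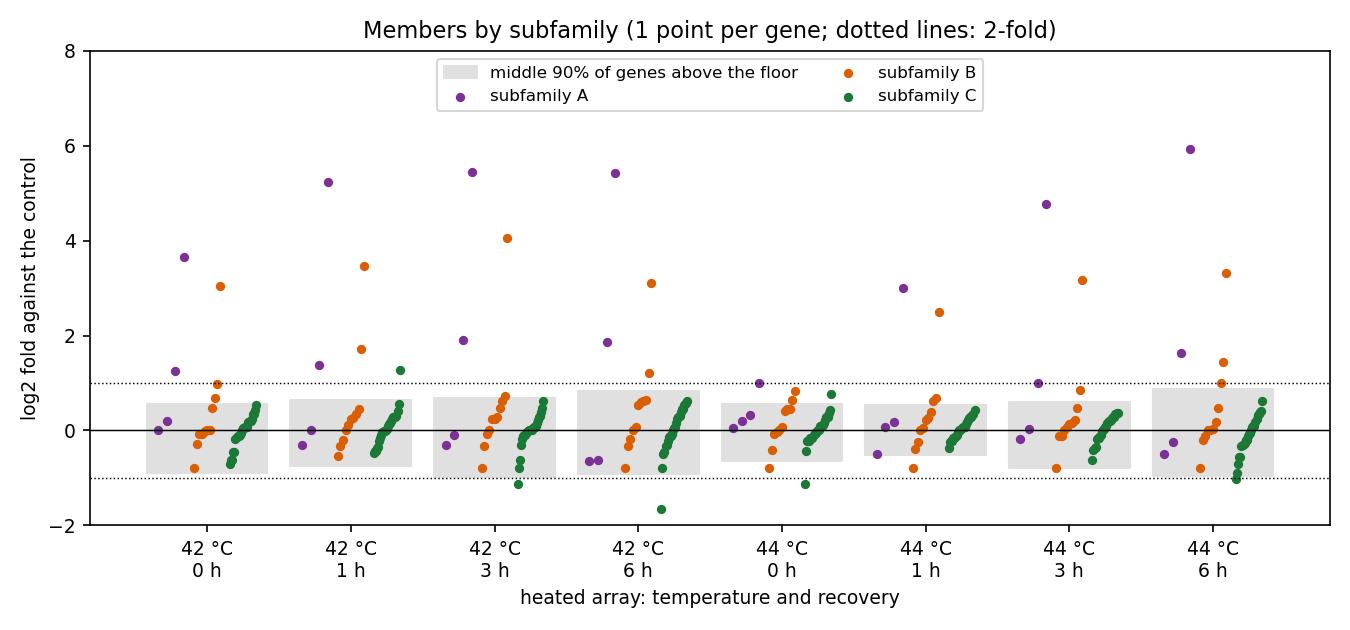
Log2 fold against the control of every member by subfamily (A purple, B orange, C green) on each heated array, with the middle 90% of genes above the floor on all 9 arrays shaded and dotted lines at 2-fold. DNAJA4 and DNAJB1 lie far above the shaded range on all arrays but that at 44 °C and 0 h, and nearly all points of subfamily C lie inside it.

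The HSP70 proteins and helpers with which DNAJ proteins work also held a few strong rises beside many small differences. Of 13 measured HSP70 family genes 4 rose at each time after 42 °C, HSPA6, HSPA1L, HSPH1 and HSPA4L, and 0 fell. On these arrays 0.93 to 2.59% of all genes rose and 1.53 to 3.08% fell. After 44 °C 0 rose at 0 h, 2 at 1 h, 3 at 3 h and 4 at 6 h, and 0 fell at any time. The shares of all genes per 44 °C array were 0.855 to 2.51% risen and 0.455 to 2.64% fallen. HSPA6, a stress-inducible HSP70, had log2 folds of 5.10 at 42 °C and 0 h and -0.07 at 44 °C and 0 h. HSPH1, an exchange factor of the HSP110 group, had its highest log2 fold, 2.69, at 42 °C and 3 h. HSPA1L and HSPA4L reached 3.47 at 42 °C and 3 h and 2.62 at 44 °C and 6 h. HSPA5 and HSPA9, the HSP70 proteins of the endoplasmic reticulum and of mitochondria, had log2 folds from -0.25 to 0.38 and from -0.11 to 0.34. HSPA1A, HSPA1B and HSPA8 had no probe set that names 1 gene alone and have no value.

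Among 13 nucleotide exchange and helper factors BAG3 rose on every array but that at 44 °C and 0 h, where its log2 fold was -0.17, and reached 4.86 at 42 °C and 3 h. STIP1, which joins HSP70 to HSP90, rose at 6 h after both temperatures, with log2 folds of 1.15 and 1.01, and 0 factors fell. GRPEL1 and GRPEL2, the exchange factors of mitochondria, had log2 folds from -0.29 to 0.40. Of 3 J-domain genes that go by other names, SEC63, GAK and HSCB, 0 rose and 0 fell, with log2 folds from -0.22 to 0.56. Of all genes 6.15% rose and 7.96% fell on 1 or more of the 8 heated arrays.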

How the data were processed

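Per the labels, total RNA of each culture was hybridised to 1 Affymetrix Human Genome U133 Plus 2.0 array, and the submitters' processing notes name MAS5 for the deposited intensity values, 1 signal per probe set. The scaling target is not given in the sources used here. Deposited signals were multiplied so that the mean of each array's 54613 non-control probe sets, with 2% trimmed at each end, was 100. Values below the median, 12.5, were set to it, and log2 was taken. Genes were named by GEO's platform annotation, from probe sets with 1 symbol alone, and read through the brightest of these by mean log2 signal over the 9 arrays. With 1 array per condition there is no measure of spread and no test, and a log2 difference of 1 or more in size was counted as a change. Apart from medians over probe sets, folds were taken within a probe set. Signals of different probe sets were set against each other only to call some brighter and to sum the marker lists. The steps were tested on simulated data, namely rescaled copies of the control without noise and with set folds in bright genes. Noise and signals near the floor were not tested.

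Named in full were members past the rule in any of 12 comparisons and the 3 brightest of each subfamily, with others as examples of their range or role, chosen after their values were seen. The members and lists were chosen with earlier results of these data known. Alternatives were quantile normalisation, a common median, floors at the 25th and 66th percentile, the median over probe sets, and members above the floor on all arrays alone. Added after seeing the data were the probe set with the highest mean linear signal and the 44 °C array at 0 h in place of the control.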

Additional observations from a re-analysis of the deposited data

How the results depend on the processing

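No paired analysis was possible because each condition has 1 array and the labels carry no replicate numbers, and for the same reason no replicate could be left out. Of 23 calls of DNAJA1, DNAJA4 and DNAJB1, 137 of 138 values under other settings (those added after seeing the data apart) kept the call, the exception being DNAJA1 between temperatures at 1 h (-0.97, median over probe sets). Of 10 calls of other members 39 of 56 values kept it, 15 lost it and 2 changed sign, and 0 of the 10 kept it under all of these. The 2 were DNAJC30 with the median over probe sets, 0.019 at 42 °C and 6 h and -0.38 between temperatures at 6 h. Both totals include the setting of members above the floor on all arrays alone. It leaves the folds as they were, so its 29 values kept the call by construction. A lower floor likewise leaves a probe set's fold unchanged where both its signals were above the floor used. Counts of members past 2-fold moved as follows. A floor at the 25th percentile gave 5 at 42 °C and 0 h (reported 3), 3, 4 and 4 at 44 °C and 0, 1 and 3 h (reported 1, 2 and 2), and 4 and 2 between temperatures at 0 and 6 h (reported 2 and 1). The median over probe sets gave 5 at 42 °C and 0 h, 0, 4 and 5 at 44 °C and 0, 1 and 3 h, 4 and 0 between temperatures at 0 and 6 h, and 3 in subfamily C on any heated array (reported 5). A floor at the 66th percentile gave 3 at 42 °C and 1 h (reported 5) and 0 between temperatures at 6 h, and members above the floor on all arrays alone gave 3 at 42 °C and 1 h. Quantile normalisation gave 2 between temperatures at 6 h and 3 in subfamily C. A common median gave 4 at 44 °C and 3 h and 2 between temperatures at 6 h, and it moved the median of genes above the floor by -0.26 to 0.33. The 44 °C array at 0 h in place of the control, added after seeing the data, gave 3 at 44 °C and 6 h (reported 5), and DNAJA1 at 42 °C and 0 h then had 0.91. The causes of these shifts were not tested. DNAJB7 and DNAJC28, at the floor on all arrays, have no fold, and low signals limit those of DNAJB2, DNAJB8 and DNAJC22.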

Other observations

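DNAJB9, a J protein of the endoplasmic reticulum that the selection left out, had a signal of 178 in the control. At 42 °C it had 143, 271, 831 and 428 after 0, 1, 3 and 6 h, and at 44 °C it had 142, 228, 743 and 715. It stood below the control at 0 h after both temperatures and rose at 3 and 6 h, by 4.66-fold at the most. Its log2 difference between temperatures was -0.01 at 0 h, where DNAJB1 and DNAJA4 had -2.61 and -2.66. DNAJC5B, with letters after its digits and so also outside, had log2 folds from -0.44 to 0.65 and passed 2-fold on 0 of 8 heated arrays. DNAJC5G was above the floor on 1 array, at 14.8.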
